A study of Mus musculus with 21 samples.

Results

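Epididymal fat of mice given 0.3% fermented mixed grain by weight (L_FMG, 3 arrays) was compared with that of mice given 0.3% steamed grain (SMG, 3 arrays), so that both groups ate a grain supplement at the same dose. The comparison took 6 of the 21 arrays in the series, by the group in their titles. All were male C57BL/6J mice, 4 weeks old on arrival, that ate chow for 1 week and then their assigned diet for 12 weeks. Both supplements were mixed into a diet with 40% of its energy from fat, which the SMG arrays share with the L_FMG arrays. Plain high-fat feeding (HFD, 40% of energy from fat, 3 arrays) and the normal diet (ND, 10% of energy from fat, 3 arrays) were used only to show where the 2 grain groups lay. A higher dose of the fermented grain (H_FMG, 0.9% by weight, 3 arrays) was used in the same way. A group given 0.3% Bacillus coagulans by weight (BC, 3 arrays) and a group labelled RMG (3 arrays), both on the 40% fat diet, entered the model fit. Some of their arrays are named in the closing section. The labels number the arrays of a group but do not say that they came from separate animals, so p-values measure the spread between these arrays, which may be technical.

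Epididymal fat is a visceral white depot. Its adipocytes store triglyceride and can make cholesterol and fatty acids, and a stroma of macrophages, fibroblasts and endothelial cells surrounds them. In obese mice macrophages gather around dying adipocytes and take up their lipid, some of them divide in place, and collagen accumulates. Fermentation changes the sugars, peptides and phenolic compounds of a grain, and this comparison sets the fermented product against cooked grain at an equal dose.

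The level of 16248 genes was measured in each array, as the brightest probe of each gene, on a log2 scale. Genes of chromosomes 7, 8, 9 and X and part of chromosome 6 were largely not analysed here. The adipocyte markers were high in all 6 arrays, as 12 measured markers averaged between 9.94 and 10.02 log2 units in L_FMG and between 9.55 and 10.09 in SMG. The markers of the epididymal duct averaged between 2.77 and 2.97 in L_FMG and between 2.84 and 3.0 in SMG. Gene-wide distances (root mean square difference, log2) between an L_FMG and an SMG array averaged 0.311, against 0.333 between arrays within L_FMG and 0.281 within SMG. The distance between the groups lay between those within them.

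Array L_FMG 4 stood apart in a set of genes. There 89 genes were at least 1 log2 unit above each of the other 5 arrays, against 6 and 3 genes in L_FMG 8 and L_FMG 10, and 0, 0 and 2 in SMG 5, SMG 8 and SMG 12. Lrp2, the endocytic receptor megalin of absorbing epithelia, was at 6.90 in L_FMG 4 and at 3.44 and 3.81 in the other L_FMG arrays, against 3.27, 3.34 and 3.85 in SMG. Tmem212 was at 6.45 in L_FMG 4 and at 3.20 and 3.41 in the others, against 2.75, 3.24 and 3.64 in SMG. Ppil6 was at 6.08, 3.20 and 3.27 in L_FMG and at 2.57, 2.72 and 3.95 in SMG. These 3 genes were among the 7 whose groups differed by more than 1 log2 unit. Their differences of 1.23, 1.14 and 1.10 dropped to 0.14, 0.09 and 0.15 without L_FMG 4, and their groups overlapped.

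No gene passed the test between L_FMG and SMG. With limma and Benjamini-Hochberg adjustment at 0.05, 0 of 16248 genes were called (0% of those tested), and the lowest adjusted p was 0.367. With array quality weights in the same fit 15 genes were called, 11 of them among the 24 leading genes described below, including Snord104 and H2bc12; no other of the 15 alternative settings called any. At an unadjusted p under 0.05 there were 886 genes (5.45%), 362 higher in L_FMG (2.23%) and 524 lower (3.23%). All 3 arrays of L_FMG lay above all 3 of SMG for 690 genes (4.25%) and below them for 802 genes (4.94%). The median difference over all genes was -0.01 log2 units, with 7805 genes higher in L_FMG and 8443 lower. Members of a gene list are read in the same 3 arrays of each group, so their number does not add replicates. The median 95% interval, not adjusted for the number of genes, reached 0.31 log2 units to either side. Every difference between L_FMG and SMG below is therefore a measured one that did not pass the test across all genes. A difference is given in log2 units, L_FMG minus SMG, with its standard error.

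Among genes whose arrays did not overlap, those with the smallest p included small RNA genes on the higher side and genes of chromatin, cell division and protein synthesis on the lower side. Snord104, a small nucleolar RNA that guides the chemical modification of ribosomal RNA, was at 8.46, 8.52 and 8.54 in L_FMG, against 7.65, 7.76 and 7.95 in SMG. Its 3 L_FMG arrays lay close together and above SMG, a difference of 0.72 ± 0.13 (limma adjusted p = 0.367). The HFD arrays, at 7.77, 7.70 and 7.59, lay near SMG, and the ND arrays, at 8.40, 8.57 and 8.48, near L_FMG. Scarna2, a Cajal body RNA, was at 7.40, 7.64 and 7.85 in L_FMG and at 6.77, 7.04 and 7.24 in SMG (0.62 ± 0.17).

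The largest lower difference was that of H2bc12, a replication-dependent histone H2B gene. It was at 4.22, 3.74 and 3.96 in L_FMG, against 5.23, 5.13 and 4.68 in SMG, a difference of -1.04 ± 0.20 (limma adjusted p = 0.367). Its HFD arrays (4.81, 4.94 and 4.94) again lay with SMG, and its ND arrays (3.83, 3.64 and 3.50) with or below L_FMG. Foxm1, a transcription factor of the G2 and M phases of the cell cycle, was at 3.97, 3.99 and 3.75 in L_FMG and at 4.77, 4.48 and 4.27 in SMG (-0.60 ± 0.13, limma adjusted p = 0.516).

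**Figure D1:**
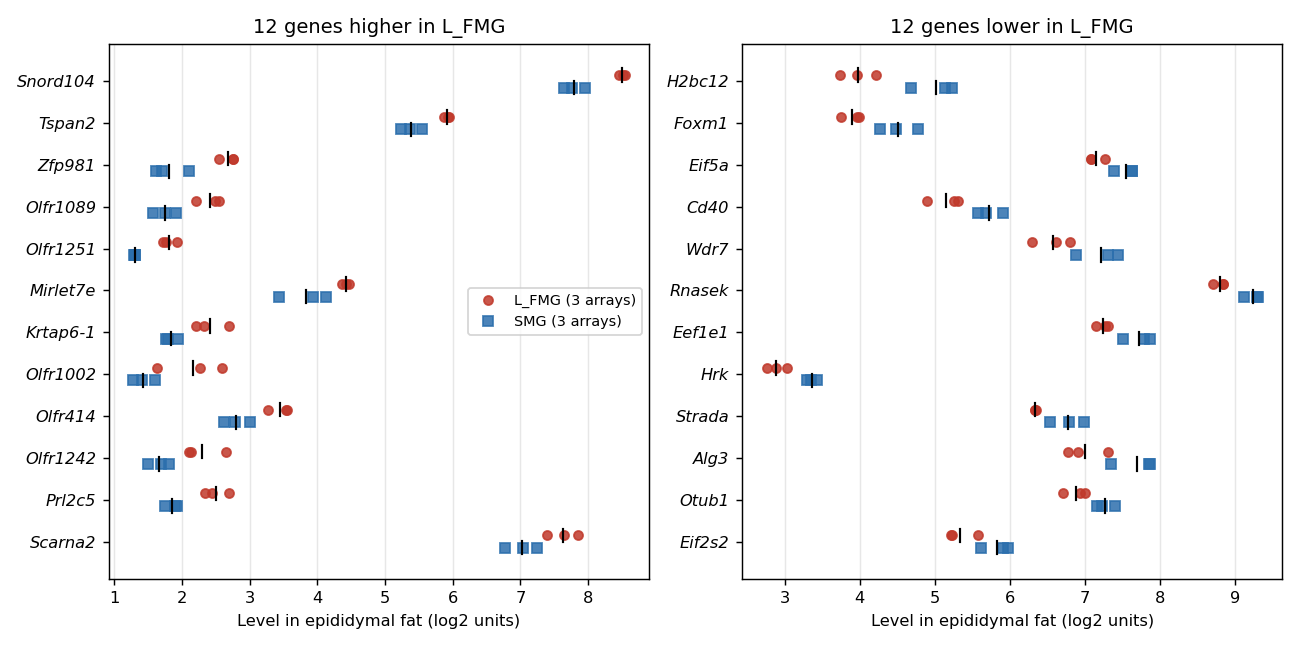
Levels (log2 units, horizontal axis) of the 24 genes with the smallest p among those whose arrays did not overlap, 12 higher and 12 lower in L_FMG, for 3 L_FMG arrays (circles) and 3 SMG arrays (squares); black ticks are group means. The groups do not overlap in any of the 24 genes, and several of the higher genes lie near 2 log2 units.

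Translation factors were among the lower genes. Eif5a, a translation elongation factor, was at 7.08, 7.26 and 7.08 in L_FMG and at 7.62, 7.63 and 7.39 in SMG (-0.41 ± 0.09). Eef1e1, a scaffold protein of the aminoacyl-tRNA synthetase complex, was at 7.27, 7.30 and 7.15 in L_FMG and at 7.87, 7.78 and 7.51 in SMG (-0.48 ± 0.12). Eif2s2, a subunit of the initiation factor that brings the first tRNA to the ribosome, differed by -0.49 ± 0.13, and Alg3, a mannosyltransferase that builds the sugar of new glycoproteins, by -0.69 ± 0.18. These genes were chosen by their p, and no list of translation factors was examined.

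Cd40, the costimulatory receptor of macrophages, dendritic cells and B cells, was at 5.31, 5.26 and 4.89 in L_FMG, against 5.68, 5.91 and 5.58 in SMG (-0.57 ± 0.13). Every L_FMG array was below every SMG array, and the HFD arrays (5.49, 5.80 and 5.57) lay between the groups or with SMG. Its ND arrays, at 5.51, 5.38 and 5.32, lay between the groups, above every L_FMG array. The remaining lower genes were Wdr7 (-0.64 ± 0.14), which takes part in the acidification of vesicles, Rnasek (-0.45 ± 0.11), Strada (-0.43 ± 0.11), a partner of the kinase LKB1, Otub1 (-0.39 ± 0.10), a deubiquitinase, and Hrk (-0.47 ± 0.12), a pro-apoptotic gene of the BCL2 family.

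Tspan2, a tetraspanin, was at 5.87, 5.94 and 5.93 in L_FMG and at 5.37, 5.24 and 5.55 in SMG (0.52 ± 0.11). Most of the other higher genes were dim. Of the 12 leading higher genes, 5 were olfactory receptors (Olfr1089, Olfr1251, Olfr1002, Olfr414 and Olfr1242), with differences of 0.50 to 0.73, and their SMG means lay between 1.30 and 2.80. Zfp981 (0.87 ± 0.21), Krtap6-1 (0.57 ± 0.15) and Prl2c5 (0.64 ± 0.18) were as dim, with SMG means of 1.81, 1.84 and 1.86. Over the 718 olfactory receptors measured, 505 were higher and 213 lower, with a median of 0.09 against -0.01 for all genes. That median was 0.15 without L_FMG 4 and 0.05 without L_FMG 8.

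Mirlet7e, the gene of let-7e, was the only microRNA gene among the leading genes, and its products and those of its neighbour are shown because they lie in 1 cluster. The let-7 family holds many genes with 1 seed, the bases that pair with target messages, and represses growth and cell cycle genes. Its 2 arms and the 5p arm of miR-99b, which RefSeq places beside it on the plus strand of chromosome 17 (GRCm38.p6), read 5′ to 3′ with the seed (bases 2 to 8) in capitals:
let-7e-5p: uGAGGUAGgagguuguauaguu
let-7e-3p: cUAUACGGccuccuagcuuucc
miR-99b-5p: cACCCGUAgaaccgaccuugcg
The let-7e-5p arm lies at chr17:17830366-17830387 and the miR-99b-5p arm at chr17:17830194-17830215. Mirlet7e was at 4.42, 4.47 and 4.37 in L_FMG, against 3.93, 3.44 and 4.13 in SMG (0.58 ± 0.15, limma adjusted p = 0.844). The array probe reads the gene and does not tell the precursor from its mature arms. Mir99b was at 5.92, 5.49 and 5.87 in L_FMG and at 5.89, 5.76 and 6.08 in SMG, a difference of -0.15 ± 0.15 with overlapping arrays. The other let-7 genes measured, all with the seed of let-7e-5p, differed by -0.31 to 0.33. Over 343 microRNA genes, 194 were higher and 149 lower in L_FMG, with a median of 0.04, which was 0.00 without L_FMG 10.

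The 24 leading genes were then read in comparisons that share no array with L_FMG against SMG. Of the 12 genes higher in L_FMG, 2 were also higher in HFD than in ND, and of the 12 lower genes, 1 was lower in HFD. Over all genes 35.4% had the same sign in both comparisons. In that diet comparison limma called 9 of the 12 lower genes higher in HFD (6.54% of all genes) and 4 of the 12 higher genes lower in HFD (2.09% of all genes). These were H2bc12, Foxm1, Eif5a, Wdr7, Rnasek, Eef1e1, Strada, Alg3 and Otub1, and Snord104, Tspan2, Olfr414 and Scarna2. Both comparisons use 1 estimate of each gene's spread, so genes with a small spread are called more readily in each. At the higher dose of fermented grain against plain high-fat feeding, 11 of the 12 higher genes and 11 of the 12 lower genes had the same sign as in L_FMG against SMG, against 64.6% of all genes. None of the 24 passed the test in H_FMG against HFD. That comparison and HFD against ND share the HFD arrays, with opposite sign, so their signs are linked and are not separate evidence.

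Over all genes, the difference between L_FMG and SMG ran against that between HFD and ND. The slope of L_FMG minus SMG on HFD minus ND was -0.278, where -1 would be a reversal as large as the diet effect. An exact two-sided permutation of the 6 arrays gave p = 0.3, and 0.1 is the smallest the 20 assignments allow. Along that axis, with 0 at the mean of the 6 grain arrays, L_FMG lay at -0.01, -0.02 and -0.38, and SMG at 0.37, 0.24 and -0.20. HFD lay at 0.21, 0.43 and 0.27, and ND at -0.63, -0.71 and -0.75. SMG 5 and SMG 8 lay among the HFD arrays, while SMG 12 lay between the L_FMG arrays. The slope was -0.446 without SMG 12 (exact p = 0.1, the smallest that setting allows), -0.156 without L_FMG 10 and -0.160 without SMG 5. The size of the slope therefore depended on each of these 3 arrays. List medians that moved by a large part without 1 array are given with the list.

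**Figure D2:**
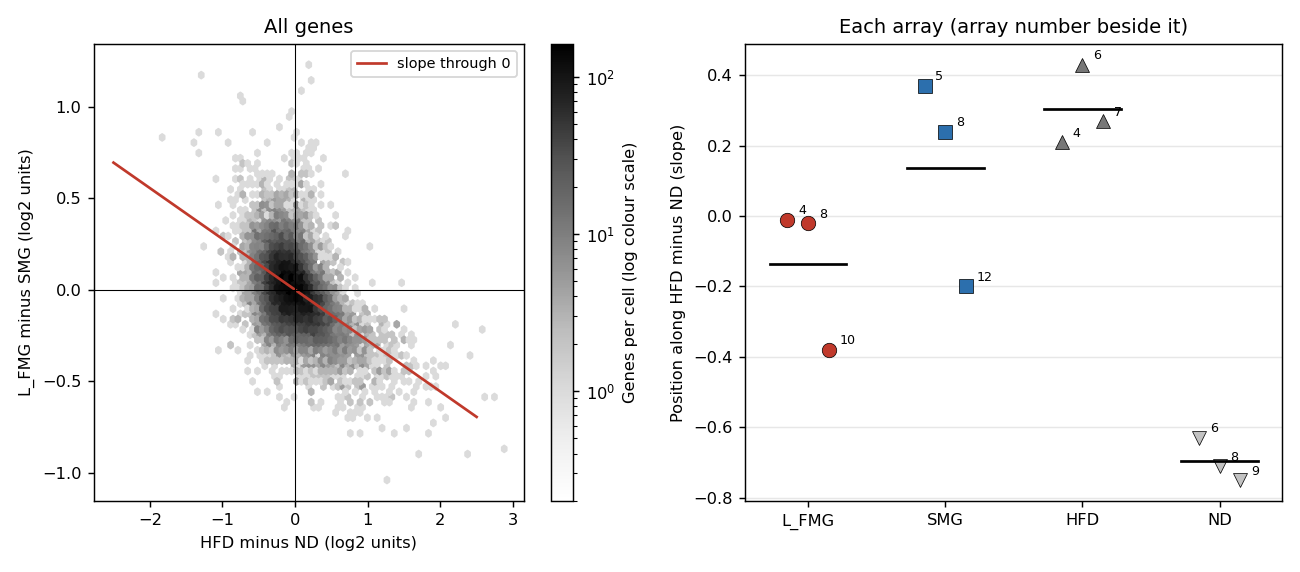
Left, L_FMG minus SMG (vertical axis, log2 units) against HFD minus ND (horizontal axis, log2 units) for 16248 genes, darker cells holding more genes on a log colour scale, with the fitted slope of -0.278. Right, the position of each array along HFD minus ND, with group means as bars: SMG 12, at -0.20, lies among the L_FMG arrays and SMG 5 and SMG 8 among the HFD arrays.

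The 44 gene lists examined included cholesterol synthesis, a list that also holds regulators of the pathway such as Insig1. Many of its genes are switched on together by the transcription factor SREBP2 when the membrane of the endoplasmic reticulum is short of sterol. Of its 23 members 13 were measured, and all 13 were lower in L_FMG, with a median of -0.28 (all genes, -0.01), and 4 had no overlap between groups, namely Lss, Fdps, Fdft1 and Stard4 (4.94% of all genes lay lower in this way). At an unadjusted p under 0.05 there were 5 (3.23% of all genes). The mean level of the list was 6.48, 6.34 and 6.09 in L_FMG and 6.78, 6.55 and 6.48 in SMG. L_FMG 4 and SMG 12 were equal to 2 decimals, so the gap between the groups is a narrow one. Of 41 gene lists with 4 or more measured members, cholesterol synthesis was the only one whose list levels did not overlap. Of the classes defined by symbol, the small nucleolar RNA genes, described last, did not overlap either. Over all genes, 4.94% lay lower and 4.25% higher without overlap. Separation was thus no more frequent among the 41 lists than among genes, so by itself it does not set cholesterol synthesis apart. All 13 members stayed lower in each of the 15 alternative settings, with medians of -0.16 without L_FMG 10, -0.17 without SMG 5 and -0.40 without SMG 12.

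Lss, which closes squalene epoxide into lanosterol, was at 5.58, 5.60 and 4.76 in L_FMG, against 6.30, 5.82 and 5.74 in SMG (-0.64 ± 0.23). L_FMG 10 was the lowest of the 6 arrays. Fdps, which makes farnesyl pyrophosphate, was at 5.79, 5.93 and 5.54 in L_FMG and at 6.54, 6.16 and 5.93 in SMG (-0.46 ± 0.17), with L_FMG 8 and SMG 12 touching at 2 decimals. Cyp51, the demethylase of lanosterol, was at 5.80, 5.48 and 4.97 in L_FMG and at 6.20, 6.00 and 5.64 in SMG (-0.53 ± 0.22). Insig1, which holds SREBP in the endoplasmic reticulum and is itself an SREBP target, was at 10.06, 9.60 and 9.06 in L_FMG and at 10.22, 9.95 and 10.11 in SMG (-0.52 ± 0.20). Hmgcs1, the condensing enzyme at the head of the pathway, differed by -0.22 ± 0.20 and overlapped.

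The letters of the sterol regulatory element, TCACNCCAC, were looked for on both strands from 250 bases before to 50 bases after the first listed start. They were in 1 of the 9 members with a promoter in RefSeq, Hmgcs1, and in 1.17% of 12334 promoters. CCAAT, the box bound by NF-Y, was in 9 of 9, against 37.6% of all promoters. Matches of the 2 motifs were counted separately. The Hmgcs1 window, chr13:119690101-119690400 on the plus strand of GRCm38.p6, is printed because it holds the list's one match, in capitals:
Hmgcs1 promoter: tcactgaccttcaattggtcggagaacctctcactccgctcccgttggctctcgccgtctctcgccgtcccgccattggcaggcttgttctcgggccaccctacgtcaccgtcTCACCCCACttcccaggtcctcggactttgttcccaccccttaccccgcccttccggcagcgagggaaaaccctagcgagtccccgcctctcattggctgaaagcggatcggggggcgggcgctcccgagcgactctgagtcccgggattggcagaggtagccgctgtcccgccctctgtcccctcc

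Genes of cell division made the largest difference of any list by median. All 27 measured members were lower in L_FMG, with a median of -0.52, and 15 had an unadjusted p under 0.05 (3.23% of all genes). Only Rrm2, a subunit of the enzyme that makes deoxynucleotides, had no overlap, at 4.15, 4.13 and 4.16 in L_FMG and 5.19, 4.61 and 4.48 in SMG (-0.61 ± 0.20). Over all genes 4.94% lay lower without overlap. The list averaged 4.98, 5.08 and 4.59 in L_FMG and 5.83, 5.42 and 4.86 in SMG. SMG 12 lay within the range of L_FMG. The median was -0.23 without SMG 5, with 26 of 27 members lower, and -0.77 without SMG 12 and -0.32 without L_FMG 10, with 27 lower in each. The HFD arrays averaged 5.11, 5.53 and 5.23 and the ND arrays 4.65, 4.65 and 4.68.

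Top2a, the topoisomerase that untangles replicated DNA, was at 5.27, 5.23 and 4.51 in L_FMG, against 6.31, 5.87 and 5.16 in SMG (-0.78 ± 0.26). SMG 12 was below the 2 higher L_FMG arrays. Ect2, an exchange factor of cytokinesis, was at 5.39, 5.83 and 4.69 in L_FMG and 6.60, 6.20 and 5.50 in SMG (-0.79 ± 0.29). Melk, a mitotic kinase, was at 4.21, 4.33 and 3.81 in L_FMG and at 5.20, 4.97 and 4.16 in SMG (-0.66 ± 0.22). Ube2c, the ubiquitin-conjugating enzyme of the anaphase-promoting complex, differed by -0.59 ± 0.23.

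Many genes of late cell cycle carry the cell cycle homology region (CHR), TTTGAA, near their start, through which the DREAM and FOXM1 complexes act. TTTGAA was found on either strand in 12 of the 22 members with a promoter in RefSeq, 54.5%, against 15.7% of 12334 promoters. CCAAT was found in 18 of 22, 81.8%, against 37.6%. A match describes the letters only. The windows of 3 members with matches are shown, CHR letters in capitals (TTCAAA where the match is on the other strand). They are chr11:99024140-99024439 (minus strand) for Top2a, chr3:27153829-27154128 (minus strand) for Ect2 and chr2:164769679-164769978 (plus strand) for Ube2c, all GRCm38.p6, read 5′ to 3′:
Top2a promoter: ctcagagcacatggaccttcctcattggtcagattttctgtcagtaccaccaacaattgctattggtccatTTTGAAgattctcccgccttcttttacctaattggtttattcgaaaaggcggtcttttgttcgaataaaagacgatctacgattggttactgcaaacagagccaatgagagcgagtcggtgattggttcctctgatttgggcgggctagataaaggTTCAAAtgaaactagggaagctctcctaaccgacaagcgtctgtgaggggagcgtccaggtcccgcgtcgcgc
Ect2 promoter: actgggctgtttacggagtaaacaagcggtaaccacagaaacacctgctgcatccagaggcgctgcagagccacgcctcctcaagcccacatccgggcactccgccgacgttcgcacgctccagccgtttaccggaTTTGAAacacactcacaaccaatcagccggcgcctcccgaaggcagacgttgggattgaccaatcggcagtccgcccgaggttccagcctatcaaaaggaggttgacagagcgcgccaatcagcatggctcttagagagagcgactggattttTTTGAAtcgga
Ube2c promoter: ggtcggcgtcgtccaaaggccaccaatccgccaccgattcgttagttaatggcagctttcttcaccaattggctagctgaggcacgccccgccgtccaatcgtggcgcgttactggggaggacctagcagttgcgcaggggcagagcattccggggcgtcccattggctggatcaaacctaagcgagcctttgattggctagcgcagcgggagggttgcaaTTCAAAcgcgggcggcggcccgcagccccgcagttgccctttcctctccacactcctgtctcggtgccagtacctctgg

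Histone genes of the replication-dependent clusters, which are transcribed in S phase, were lower for 18 of 25 measured, with a median of -0.13, and 2 did not overlap (4.94% of all genes), H2bc12, one of the leading genes above, and H1f2. H1f2, a linker histone gene named here after its values were seen, was at 6.69, 6.76 and 6.76 in L_FMG and at 7.27, 7.03 and 7.01 in SMG (-0.37 ± 0.13). The median was -0.03 without SMG 5, with 14 of 25 lower, and -0.08 without L_FMG 10.

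**Figure D3:**
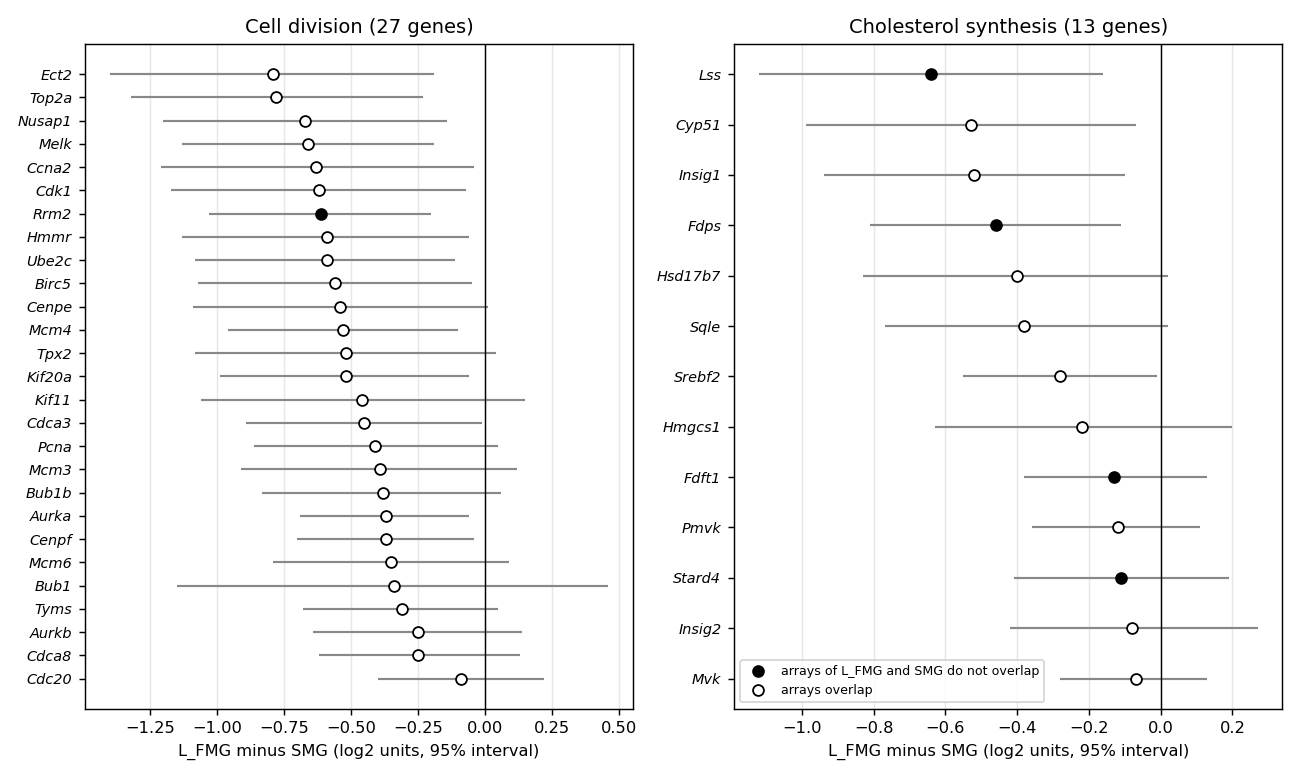
Difference L_FMG minus SMG (horizontal axis, log2 units) with its 95% interval for each measured gene of cell division (27) and cholesterol synthesis (13); filled points mark genes whose arrays do not overlap. Every point lies below 0, and the intervals of most cholesterol genes below the first 4 reach past 0.

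Macrophage markers were lower in 17 of 18 members, with a median of -0.38, but 0 of the 18 separated the groups (4.94% of all genes lay lower without overlap). The list averaged 8.24, 8.41 and 8.05 in L_FMG and 8.89, 8.75 and 8.12 in SMG, and 8.66, 8.84 and 8.65 in HFD against 7.55, 7.50 and 8.03 in ND. SMG 12 lay below 2 of the 3 L_FMG arrays. The median was -0.62 without SMG 12 and -0.21 without SMG 5. In bulk tissue fewer cells of a type and less RNA per cell cannot be told apart. Ms4a7 was at 7.60, 7.69 and 6.88 in L_FMG and 8.64, 8.37 and 7.40 in SMG (-0.74 ± 0.32). C1qc, a chain of the first complement component, was at 7.20, 7.44 and 6.74 in L_FMG and 8.03, 8.01 and 7.18 in SMG (-0.62 ± 0.25). Mrc1, the mannose receptor, differed by -0.39 ± 0.16, Fcer1g by -0.45 ± 0.21 and Adgre1, an adhesion receptor used to mark mouse macrophages, by -0.45 ± 0.31.

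The markers of lipid-associated macrophages, the TREM2-positive cells that clear lipid from dying adipocytes, were lower in 14 of 14, with a median of -0.20 and none at an unadjusted p under 0.05. Over all genes 3.23% were lower at that p. The list averaged 8.61, 8.92 and 8.60 in L_FMG and 9.37, 9.18 and 8.43 in SMG, where SMG 12 was the lowest of the 6 arrays. Trem2 was at 8.04, 8.60 and 7.98 in L_FMG and at 9.19, 8.94 and 7.69 in SMG (-0.40 ± 0.42). Tm4sf19 differed by -0.59 ± 0.44, with an interval of -1.52 to 0.33, and Gpnmb by -0.19 ± 0.44. The list median was -0.48 without SMG 12, -0.30 without L_FMG 8 and -0.08 without SMG 5.

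**Figure D4:**
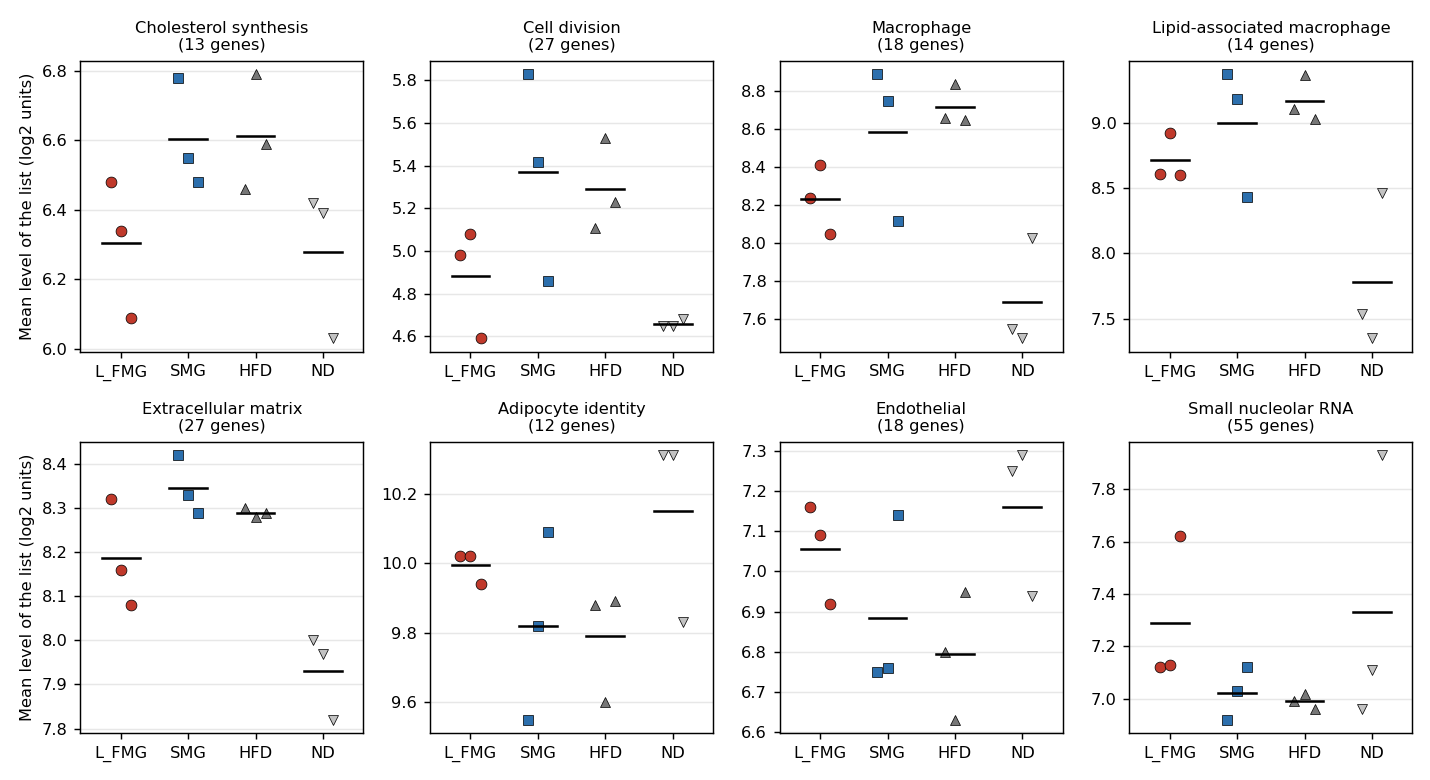
Mean level (vertical axis, log2 units) of 8 gene lists in each array of L_FMG, SMG, HFD and ND, with group means as bars. SMG 12 lies at or below the middle L_FMG array for cell division and both macrophage lists, and above the L_FMG arrays for adipocyte identity; axes do not start at 0.

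The Toll-like receptor pathway, through which macrophages and adipocytes sense bacterial products, was lower for 13 of 15 measured members, with a median of -0.17. Of the 15, 2 lay lower without overlap, Ly96 and Ticam1 (4.94% of all genes). At an unadjusted p under 0.05 there were 2, both lower (3.23% of all genes). Ly96, the MD-2 protein that binds lipopolysaccharide beside TLR4, was at 7.31, 7.60 and 7.61 in L_FMG, against 8.66, 8.39 and 7.74 in SMG (-0.75 ± 0.22), without overlap. It ranged from -1.02 without SMG 12 to -0.56 without SMG 5. Ticam1, the TRIF adaptor of TLR3 and TLR4, was at 5.10, 5.31 and 5.49 in L_FMG and at 5.55, 5.73 and 5.64 in SMG (-0.34 ± 0.13), also without overlap. Cd14, the co-receptor that hands lipopolysaccharide to MD-2, was at 6.36, 6.63 and 6.08 in L_FMG and at 7.35, 7.10 and 6.24 in SMG (-0.54 ± 0.27), and Tlr2 differed by -0.21 ± 0.13. Both overlapped. The list median was -0.09 without SMG 5 and -0.11 without SMG 8.

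Of 26 cytokines and chemokines 11 were higher and 15 lower, with a median of -0.10. Cxcl9, a chemokine induced by interferon gamma, was at 8.94, 8.75 and 8.42 in L_FMG and at 7.80, 8.09 and 8.90 in SMG (0.44 ± 0.25). Cxcl14, a chemokine of fat stroma, was at 5.86, 5.74 and 5.40 in L_FMG and at 6.65, 6.05 and 5.82 in SMG (-0.51 ± 0.18). Ccl2, the attractant of monocytes, was at 6.30, 6.81 and 6.00 in L_FMG and at 7.36, 6.78 and 6.35 in SMG (-0.46 ± 0.25). Tnf differed by -0.34 ± 0.21, with an interval of -0.78 to 0.11. Neutrophil markers (9 measured) and T and NK cell markers (17 measured) had medians of 0.05 and 0.04, which were -0.03 without L_FMG 10 and 0.12 without L_FMG 8.

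Extracellular matrix genes were lower in 23 of 27, with a median of -0.14. No L_FMG array lay above an SMG array in 5 of the 27 (4.94% of all genes), and 7 had an unadjusted p under 0.05, all lower (3.23% of all genes). The list median was -0.09 without L_FMG 10, with 19 lower, and -0.21 without L_FMG 4. Mfap5, a glycoprotein of microfibrils, was at 8.89, 8.80 and 8.88 in L_FMG, against 9.48, 9.30 and 9.36 in SMG (-0.52 ± 0.16). Its groups were tight, and SMG 12 stood with the other SMG arrays here. Leaving out any 1 of the 6 arrays gave -0.56 to -0.47. Col5a2 was at 6.82, 6.78 and 6.65 in L_FMG and at 7.22, 7.06 and 6.90 in SMG (-0.31 ± 0.12). Col1a1 and Col1a2, the chains of type I collagen, differed by -0.40 ± 0.17 and -0.38 ± 0.14 with overlap. Col8a1 was at 5.79, 5.70 and 5.70 in L_FMG and at 6.51, 6.50 and 5.66 in SMG (-0.49 ± 0.17), so that SMG 12 lay below every L_FMG array. Col6a3 differed by -0.26 ± 0.11.

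Adipocyte markers were higher in 11 of 12, with a median of 0.15 and none separated (4.25% of all genes lay higher without overlap). Pck1, the enzyme that supplies glycerol for triglyceride in fat, was at 10.44, 10.47 and 10.91 in L_FMG and at 9.25, 10.04 and 10.71 in SMG (0.60 ± 0.28). Plin4, a lipid droplet coat protein, was at 10.58, 10.41 and 10.54 in L_FMG and at 9.43, 9.99 and 10.53 in SMG (0.52 ± 0.21). In both SMG 5 was lowest and SMG 12 lay among the L_FMG arrays. The list median was 0.06 without SMG 5, with 8 of 12 higher, and 0.27 without SMG 12. The hormones of the adipocyte did not separate. Lep, encoding leptin, was at 11.51, 11.43 and 10.64 in L_FMG and at 11.43, 11.51 and 11.33 in SMG (-0.23 ± 0.18, interval -0.61 to 0.15). Adipoq, encoding adiponectin, was at 9.44, 9.54 and 9.21 in L_FMG and at 8.68, 9.32 and 9.53 in SMG (0.22 ± 0.17, interval -0.14 to 0.58).

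Of the genes of lipolysis and the lipid droplet, 7 of 10 were higher, with a median of 0.11 and 4 higher at an unadjusted p under 0.05 (2.23% of all genes). The median was 0.07 without SMG 5 and 0.26 without SMG 12, and 5 of 10 were higher without L_FMG 10. Cidea, which enlarges lipid droplets and is high in brown fat, was at 4.29, 4.07 and 4.53 in L_FMG and at 3.85, 3.62 and 4.06 in SMG (0.45 ± 0.14). It was the only 1 of the 10 without overlap (4.25% of all genes lay higher in this way). G0s2, an inhibitor of the lipase ATGL, differed by 0.50 ± 0.20, and Gpihbp1, which carries lipoprotein lipase to the capillary wall, by 0.33 ± 0.14. In fatty acid synthesis 5 of 14 were higher, with a median of -0.12 that ranged from -0.20 to -0.05 when 1 array was left out. In triglyceride synthesis, which also lists Pck1, 6 of 12 were higher and 6 lower. Agpat2, its member with the smallest p, was at 9.37, 8.88 and 8.22 in L_FMG and at 9.60, 9.38 and 9.34 in SMG (-0.62 ± 0.23), with overlap. Fasn, fatty acid synthase, was at 10.73, 10.72 and 10.44 in L_FMG and at 10.66, 10.69 and 10.84 in SMG (-0.10 ± 0.13). Pparg, the regulator of adipocyte formation, differed by 0.02 ± 0.12, with an interval of -0.24 to 0.27. Slc2a4, encoding the insulin-responsive glucose transporter GLUT4, differed by 0.24 ± 0.21.

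Endothelial markers were higher in 17 of 18, with a median of 0.16, which was 0.09 without L_FMG 4 (13 of 18 higher), 0.10 without SMG 5 and 0.26 without SMG 12. Sox17, an arterial transcription factor, was at 6.37, 6.58 and 6.40 in L_FMG and at 6.18, 6.04 and 6.27 in SMG (0.29 ± 0.13). It was the only 1 of the 18 without overlap (4.25% of all genes lay higher in this way). Cldn5, a tight junction protein, was at 7.90, 7.80 and 7.70 in L_FMG and at 7.20, 7.08 and 7.71 in SMG (0.47 ± 0.20). Egfl7 differed by 0.37 ± 0.14. In Cldn5 and Egfl7 SMG 12 lay within the L_FMG range. Mesothelial markers, from the surface lining of the depot, were higher in 9 of 10, with a median of 0.29, and the list level was 5.10, 4.51 and 5.15 in L_FMG against 4.45, 4.75 and 4.78 in SMG. L_FMG 8 was lower than 2 SMG arrays, and the median was 0.10 without L_FMG 10, 0.19 without L_FMG 4 and 0.47 without L_FMG 8. Of the members, Krt8 was at 6.44, 5.47 and 5.70 in L_FMG and at 5.30, 5.33 and 5.73 in SMG. Krt18 was at 5.54, 4.14 and 4.29 in L_FMG and at 4.13, 4.12 and 4.59 in SMG. Both were highest in L_FMG 4, the array that stood apart in other genes. Whether those genes and these keratins share a source was not tested. How much the depot surface in the sample bears on other differences was not tested either.

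Of 13 clock genes measured, 8 were higher and 5 lower, with a median of 0.13. Without overlap 3 were higher (4.25% of all genes) and 1 lower (4.94% of all genes). At an unadjusted p under 0.05, 1 was higher (2.23% of all genes) and 1 lower (3.23% of all genes). The median was 0.00 without L_FMG 4, with 7 higher and 6 lower, 0.08 without L_FMG 10 and 0.23 without L_FMG 8. Npas2, an activator that pairs with BMAL1, was at 5.02, 5.39 and 5.35 in L_FMG, against 6.09, 5.83 and 5.72 in SMG (-0.62 ± 0.20). Nr1d1 and Nr1d2, the REV-ERB repressors of Npas2 and Bmal1, were both higher without overlap. Nr1d2 was at 7.01, 6.54 and 6.43 in L_FMG and at 6.20, 5.84 and 6.35 in SMG (0.53 ± 0.18). Nr1d1 was at 8.32, 7.97 and 7.91 in L_FMG and at 7.29, 7.48 and 7.90 in SMG (0.51 ± 0.27), with L_FMG 10 and SMG 12 nearly equal. Per3 differed by 0.32 ± 0.17 with overlap. The labels used here do not give the time of day at which each animal was sampled, so its part in these values was not tested.

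Small nucleolar RNA genes were higher in 51 of 55, with a median of 0.26, and 11 of the 55 lay above SMG in all 3 arrays (4.25% of all genes). This class was defined by symbol, and its genes were named after their values were seen. Snora73b was at 6.83, 7.40 and 7.87 in L_FMG and at 6.33, 6.43 and 6.74 in SMG (0.87 ± 0.31). Snora21 was at 9.49, 9.41 and 10.34 in L_FMG and at 8.99, 9.30 and 9.37 in SMG (0.52 ± 0.25). The class averaged 7.12, 7.13 and 7.62 in L_FMG and 6.92, 7.03 and 7.12 in SMG, without overlap, though L_FMG 4 and SMG 12 were equal to 2 decimals. L_FMG 10 was far above the rest, and without it 40 of 55 were higher with a median of 0.09. That array also had the smallest spread of levels, with a standard deviation of 1.906 over all complete probes against 1.960 to 2.003 in the other 5 arrays. Whether this bears on the class was not tested. Snord104 was at 8.54 in L_FMG 10 and kept a difference of 0.70 without it.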

How the data were processed

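The deposited values were log2 levels, 1 per probe and array, by the authors; the sources used here do not state how they were normalized. Per the labels' protocols, Trizol total RNA was made into sense cDNA, fragmented and labelled with biotin for a GeneChip whole-transcript array. Of 24292 probes, 17067 complete ones had 1 gene symbol, 1139 several and 6085 none; 668 of 16248 genes had more than 1 probe, and the brightest by mean over 21 arrays was kept. Arrays carry no read depth; their number limits the precision.

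The L_FMG minus SMG contrast was fitted with limma 3.58.1 (R 4.3.3; lmFit, eBayes with an intensity trend) on all 21 arrays with 7 group coefficients, two-sided, with Benjamini-Hochberg adjustment over 16248 genes, and tested on simulated data. No batch is labelled. Lists are described by counts and medians, with no test; 555 of their 841 gene names were measured. The position along HFD minus ND was tested by exact permutation. Alternatives were normalization, a filter on dim genes, the arrays fitted, the variance model, the probes and each array left out. Named genes are the 12 per direction with the smallest p among non-overlapping genes without predicted gene models, up to 4 per list with the smallest p, and a core panel of fat genes; others are said to be chosen after their values were seen, as are Fdft1, Stard4, Hmgcs1, Ube2c, Mir99b and the genes of array L_FMG 4. Members and lists were chosen with earlier results of these data known. Promoter and microRNA sequences are from RefSeq (GRCm38.p6).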

Additional observations from a re-analysis of the deposited data

How the results depend on the processing

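The count of called genes stayed at 0 in 14 of 15 alternative settings and was 15 with array quality weights, which give less weight to arrays that depart from their group. The lowest adjusted p ranged from 0.0751 without SMG 12 to 1 without SMG 5 over the settings that leave out an array. Counts at an unadjusted p under 0.05 were 886 as reported, 391 without SMG 5, 575 without SMG 8, 1891 without SMG 12, 2306 with array weights and 1393 when each of 24291 probes was tested. With quantile normalization 1007 genes reached it, 496 higher and 511 lower; with dim genes left out 635 did, 187 higher and 448 lower of 10259 tested. The slope along the diet axis stayed negative, at -0.272 with quantile normalization, -0.319 with dim genes left out and between -0.446 and -0.156 when 1 array was left out. The 24 leading genes kept their direction in every setting run. They were chosen for arrays that did not overlap, so leaving out or weighting arrays could not have reversed them. Of the 84 named genes checked in this way, which leave out Stard4, Sntn, Dnah5, Foxj1, Krt8, Krt18 and Agpat2, 80 kept their direction. With 1 array left out Gpnmb ranged from -0.55 to 0.03 and Adipoq from -0.03 to 0.40. Lep ranged from -0.39 to 0.04 and Pparg from -0.05 to 0.09. The cause of these changes was not tested. No paired analysis was possible because L_FMG and SMG share only the number 8. The number of arrays, 3 a group, limits the precision, with a median unadjusted 95% interval of 0.31 log2 units to either side.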

Other observations

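The genes that set array L_FMG 4 apart included some of motile cilia, the beating projections of some epithelia. Of 40 measured genes whose symbol starts with Dnah, Dnai, Cfap or Rsph (dynein arms, cilia-associated proteins and radial spokes), 29 were highest in L_FMG 4 among the 6 arrays, and 9 were at least 1 log2 unit above each of the other 5. This class was chosen after the values were seen. Its mean level was 4.35 in L_FMG 4 and 3.56 and 3.74 in the other L_FMG arrays, against 3.63, 3.58 and 3.79 in SMG. Sntn, a protein of the ciliary tip, was at 5.39 in L_FMG 4 and at 2.89 and 2.64 in L_FMG 8 and L_FMG 10, against 2.68, 2.86 and 3.36 in SMG. Dnah5, an outer arm dynein, was at 5.72, 3.54 and 3.65 in L_FMG and at 3.51, 3.56 and 3.80 in SMG. Foxj1, the transcription factor of ciliated cells, was at 4.36, 3.53 and 3.62 in L_FMG and at 3.52, 3.85 and 3.51 in SMG.

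Several of these genes were also high in 2 arrays of other groups. Lrp2 was at 6.50 in array 11 of the group given Bacillus coagulans (BC) and at 5.19 in array 10 of the group labelled RMG, whose supplement the labels do not describe. Sntn was at 5.75 and 4.44 in those arrays, and Dnah5 at 5.41 and 4.61. Foxj1 was at 4.34 in BC 11 and at 3.81 in RMG 10. In the other 18 arrays Lrp2 lay between 3.19 and 3.85, Sntn between 2.53 and 3.36, Dnah5 between 3.43 and 3.90 and Foxj1 between 3.13 and 3.86, a range that holds its level in RMG 10. The mean level of the 40 genes was 4.26 in BC 11 and 3.90 in RMG 10, and between 3.56 and 3.84 in the other 18 arrays.

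The remaining genes with a difference above 1 log2 unit were 3 little-described transcripts whose groups did not overlap. Gm8005 was at 4.36, 4.79 and 4.31 in L_FMG, against 2.68, 3.88 and 3.41 in SMG (1.16 ± 0.33). Gm38418 was at 4.53, 5.07 and 4.28 in L_FMG, against 3.33, 3.75 and 3.64 in SMG (1.05 ± 0.33). Pla2g10os, an antisense transcript by its name, was at 3.88, 4.23 and 4.23 in L_FMG, against 3.31, 3.70 and 2.21 in SMG (1.04 ± 0.43), and its difference was 0.61 without SMG 12. None passed the test across all genes (limma adjusted p = 0.844 for each).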
